A study of Mus musculus with 6 samples.

Results

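The genes described here are 10 chemokine ligands, Ccl1, Ccl3, Ccl4, Ccl5, Ccl17, Ccl22, Ccl24, Cxcl2, Cxcl3 and Ppbp. They were taken by symbol from a table of 24421 genes, and each symbol matched a single row. RNA was sequenced from type 2 innate lymphoid cells (ILC2), lymphocytes without antigen receptors that answer to tissue alarm signals. The cells were sorted from mouse brain by their surface markers and grown for 2 weeks in serum-containing medium with IL7, IL2, IL33 and SCF. The young group held 3 libraries from C57BL/6 mice of 2 to 3 months, and the old group held 3 libraries from C57BL/6 mice of 20 to 22 months. Both groups were grown in the same cytokines, so every library came from cells exposed to IL33, and no uncultured cells entered the comparison. Nothing in the labels ties a library to an animal or a culture of its own. The tests therefore weigh differences against library-to-library spread, which may be technical.

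Chemokines are small secreted proteins that guide the movement of leukocytes through G protein-coupled receptors. They are grouped by the spacing of their first cysteines into CC ligands, which mostly act on monocytes, lymphocytes and eosinophils, and CXC ligands, some of which attract neutrophils. Activated ILC2 are known sources of chemokines, and IL33 acts on them through the receptor encoded by Il1rl1, which feeds into NF-kappaB.

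Library totals ran from 16477157 to 20804291 counts. All 16 genes of an ILC2 marker list had counts, and their summed level ran from 13460 to 16480 CPM in young and from 13350 to 15810 CPM in old libraries. Without Id2, the most abundant of them, the sum was 10300 to 12110 CPM in young and 6969 to 9415 CPM in old libraries, lower in old without overlap. By edgeR's adjusted p, Id2 and Thy1 rose and 6 markers fell, among them Gata3, Il1rl1, Icos and Klrg1, with Klrg1 at 76.5 to 100.6 CPM in young and 0 to 3.87 CPM in old libraries. Kit had 0 counts in every old library. The part of these shifts in the ligand results was not tested. CPM are counts brought to a common library size, here with library sizes scaled by the trimmed mean of M values (TMM), and the TMM factors ran from 1.12 to 1.18 in young and from 0.840 to 0.885 in old libraries. Counts were uneven between libraries of a group at low levels. In young, 398 of the 11110 genes that reached 50 counts in some library had 0 in another (3.58%), and in old this held for 498 of 10669 genes (4.67%).

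Of the 10 ligands, 2 rose, 3 fell, 2 were tested and did not pass, 1 had too few counts to be tested and 2 had no counts. Cxcl3 and Cxcl2 rose in old cells, while Ppbp, Ccl24 and Ccl3 fell. Ccl4 and Ccl5 did not pass, Ccl1 was below the filter on low counts, and Ccl17 and Ccl22 were at 0 in all 6 libraries. A gene was called when its Benjamini-Hochberg adjusted p from edgeR's quasi-likelihood test over all 11805 tested genes was under 0.05. By that rule 11.2% of all tested genes were higher in old cells (1325 genes) and 8.14% were lower (961 genes). The median log2 difference, old minus young, was -1.52 over the 7 tested ligands and -0.10 over all tested genes. Scaling by library totals in place of TMM moved the median of all genes to -0.52 and the genes called to 718 higher and 2380 lower, and the number called lower was 399 without young replicate 1 and 480 without young replicate 2. Because the samples are bulk RNA, fewer cells making a ligand and less of its RNA per cell cannot be told apart for any of these genes.

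The groups did not overlap for 6 of the 7 tested ligands. Every old library was above every young library for 2 of them, Cxcl3 and Cxcl2, an arrangement found in 19.3% of all tested genes. Every old library was below every young library for 4 of them, Ccl3, Ccl4, Ccl24 and Ppbp, an arrangement found in 18.8% of all tested genes. Counts in all 3 young libraries together with 0 in all 3 old libraries were found for Ccl24 and Ppbp, and for 0.652% of all tested genes (77 genes). Genes of this kind passed the filter on low counts through their young libraries alone.

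**Figure D1:**
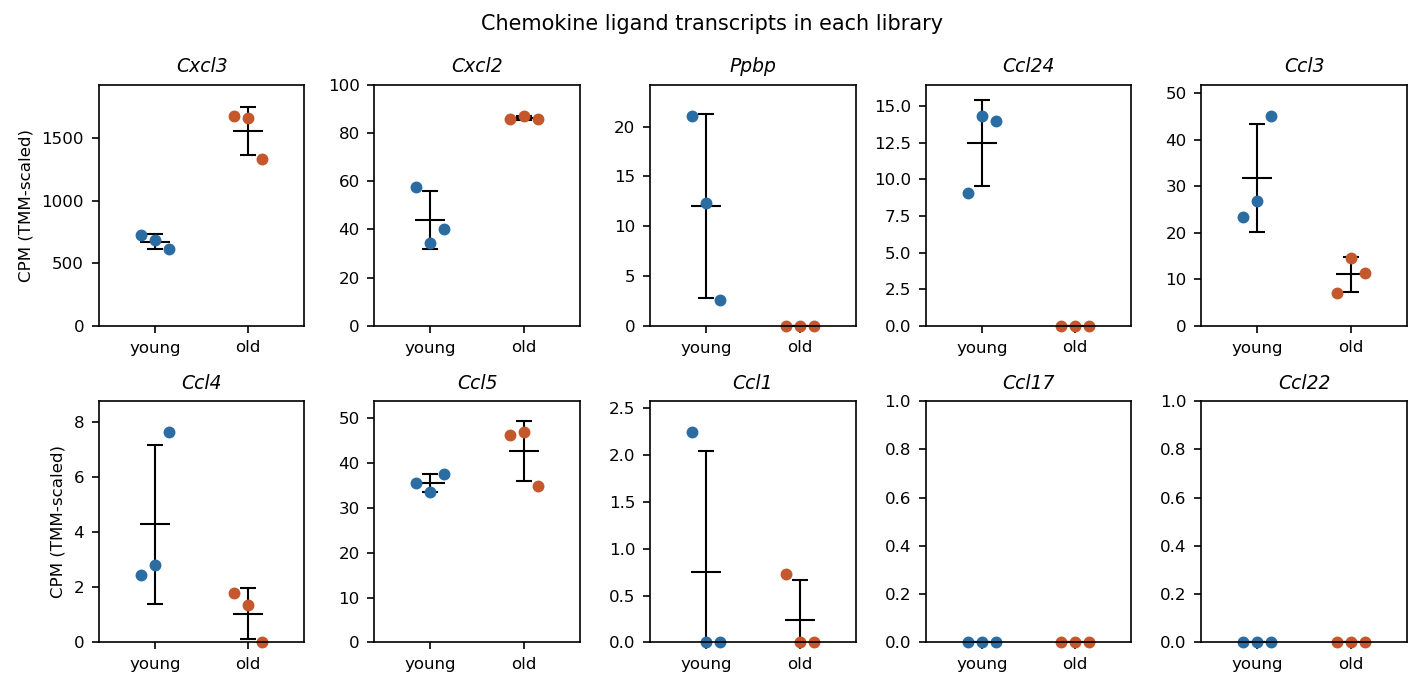
Level of each of the 10 ligands in CPM on TMM-scaled library sizes, with a panel and a linear axis of its own for each gene, a point for each of the 3 young and 3 old libraries, and lines for the mean ± SD. The old points of Cxcl3 and Cxcl2 lie above all young points, those of Ccl3, Ccl4, Ccl24 and Ppbp lie below them with Ccl24 and Ppbp at 0, and Ccl17 and Ccl22 are at 0 throughout.

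Cxcl2 and Cxcl3 encode close relatives among the CXC ligands that attract neutrophils, which act mainly through Cxcr2. Ppbp encodes a further CXC ligand, made in large amounts by platelets, whose processed form also acts through Cxcr2. All 3 genes lie on the forward strand of chromosome 5 in one cluster (GRCm38, GENCODE vM21 gene models): Ppbp at 90768518 to 90770063, Cxcl3 at 90786103 to 90789600 and Cxcl2 at 90903871 to 90905938. Pf4 lies in the 16 kb between Ppbp and Cxcl3, and Cxcl15 and Cxcl1 lie in the 114.3 kb between Cxcl3 and Cxcl2. Because Cxcl3 and Cxcl2 rose together while Ppbp fell, a stretch of 100 bases from 150 to 51 bases before each start is shown, with that of Cxcl1 for comparison. The sequences are from the RefSeq promoter table (GRCm38.p6), read 5′ to 3′ on the forward strand, with capitals marking a match to the NF-kappaB motif on either strand.
Cxcl3, chr5:90785951-90786050: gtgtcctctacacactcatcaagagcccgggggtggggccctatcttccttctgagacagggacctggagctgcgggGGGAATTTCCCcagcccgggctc
Cxcl2, chr5:90903749-90903848: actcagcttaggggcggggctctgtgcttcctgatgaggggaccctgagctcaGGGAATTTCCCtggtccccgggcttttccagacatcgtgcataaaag
Cxcl1, chr5:90891095-90891194: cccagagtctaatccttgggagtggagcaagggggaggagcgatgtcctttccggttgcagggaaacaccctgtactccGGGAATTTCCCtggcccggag
Ppbp, chr5:90768368-90768467: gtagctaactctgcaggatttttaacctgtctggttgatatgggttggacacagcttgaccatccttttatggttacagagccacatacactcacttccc

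Cxcl3, Cxcl2 and Cxcl1 carried the same 11 capital bases, in which matches on the 2 strands overlap. The NF-kappaB motif was found in 8.5% of the 32851 promoter windows of 300 bases in the table. Among the 7 ligands with an entry, the windows of Cxcl3, Cxcl2 and Ccl1 held it, and those of Ccl3, Ccl17, Ccl22 and Ppbp did not. Ccl4, Ccl5 and Ccl24 had no entry. Of the other cluster genes looked up, Cxcl5 had no entry and the window of Pf4 held no NF-kappaB match. Pf4 stood at 0.469 CPM in young and 6.99 CPM in old cells on average (edgeR adjusted p = 0.0825). Cxcl1, with the same capital bases, was at 1.94 CPM in young and 0.673 CPM in old cells and did not pass (edgeR adjusted p = 0.658). An AP-1 motif, TGANTCA on either strand, was found in 7.8% of all windows and, among the 7, in that of Ppbp. Over the 250 bases before the start, aligned identity was 56.1% between Cxcl3 and Cxcl2, 51.3% between Cxcl3 and Cxcl1 and 49.3% between Cxcl3 and Ppbp. These matches describe letters in the windows and were not tested against the changes in level.

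Cxcl3 was by far the most abundant of the 10 ligands. Its level was 727, 685 and 612.5 CPM in the young libraries and 1679, 1660 and 1335 CPM in the old libraries. The lowest old library stood well above the highest young library, and the old libraries placed Cxcl3 between rank 82 and rank 112 of all genes by CPM, against rank 146 to rank 212 in young. The means were 675 ± 58.0 CPM in young and 1558 ± 193 CPM in old cells (SD, n = 3 each), 2.31-fold higher in old. On the log2 scale the difference was 1.21 ± 0.13 (SE), with an adjusted p of 1.42e-04 from edgeR's quasi-likelihood test. Cxcl3 was called higher under all 15 alternative settings tried, with log2 differences from 0.79 to 1.46.

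Cxcl2 stood at 57.4, 34.3 and 40.2 CPM in young and at 85.8, 87.0 and 85.7 CPM in old libraries. The old libraries were nearly equal, while young replicate 1 stood above the other young libraries. The means were 44.0 ± 12.01 and 86.2 ± 0.721 CPM (SD, n = 3 each), a log2 difference of 0.97 ± 0.23 (SE) with an adjusted p of 0.0134 from edgeR. With scaling by library totals the difference was 0.55 with an adjusted p of 0.105, and the call was lost.

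Cxcl3 and Cxcl2 kept a similar ratio in both groups. The log2 ratio of Cxcl3 to Cxcl2 (raw counts plus 0.5) was 3.66, 4.32 and 3.93 in young and 4.29, 4.25 and 3.96 in old libraries, with overlapping groups. The difference of the means was 0.20, with a two-sided exact permutation p of 0.5 and 0.7 after adjustment over the 2 ratios tested. With 3 libraries against 3, 0.1 is the smallest p this test can give. The transcripts share few stretches: 3.82% of the 75-base windows of Cxcl3 were also in Cxcl2, and 3.48% of those of Cxcl2 were in Cxcl3.

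Ppbp had 404, 303 and 51 counts in the young libraries and 0 in each old library. In CPM this was 21.1, 12.3 and 2.59 in young, so young replicate 3 was low, yet all young libraries lay above the old. The young mean was 12 ± 9.24 CPM (SD, n = 3). Against a floor of 3 counts over the old group, 0.0657 CPM, Ppbp was at least 183-fold lower in old cells, with an adjusted p of 0.00155 from edgeR. The adjusted p ran from 7.61e-10 to 0.0459 over the 15 alternative settings. The bound was 114-fold without young replicate 1 and 120-fold to 123-fold when an old library was left out, which raises the floor. Floors of this kind cover counting error only, and the part of the uneven low counts within groups, given above, was not tested.

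Platelets are the best known source of Ppbp. Of 13 platelet and megakaryocyte markers, 9 were at 0 in every library. The summed level of the list was 40.1 to 76.3 CPM in young and 43.6 to 56.2 CPM in old libraries, nearly all from Itgb3. Without Itgb3 the sum was 0.0814 to 1.304 CPM in young and 4.001 to 9.16 CPM in old libraries, where Ppbp was at 0, and in old libraries nearly all of this remainder was Pf4. The part of this list in the Ppbp result was not tested.

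The other genes of the cluster did not all move with their neighbours. Cxcl5, a neutrophil attractant next to Ppbp, stood at 47.3, 27.3 and 58.1 CPM in young and 16.7, 20.1 and 6.03 CPM in old libraries. All old libraries were below the young ones, and Cxcl5 fell by 1.63 ± 0.45 on the log2 scale (SE, edgeR adjusted p = 0.0267). This call was lost without young replicate 1 (adjusted p = 0.0892), without young replicate 3 (0.105) and without old replicate 1 (0.051). Pf4, a platelet chemokine between Ppbp and Cxcl3, stood at 1.304, 0 and 0.102 CPM in young and 7.88, 9.09 and 4.001 CPM in old libraries, with an adjusted p of 0.0825 from edgeR. Cxcl1 had 1.94 ± 2.14 CPM in young and 0.673 ± 1.17 CPM in old cells (SD, n = 3 each; edgeR adjusted p = 0.658), and Cxcl15 had no counts.

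**Figure D2:**
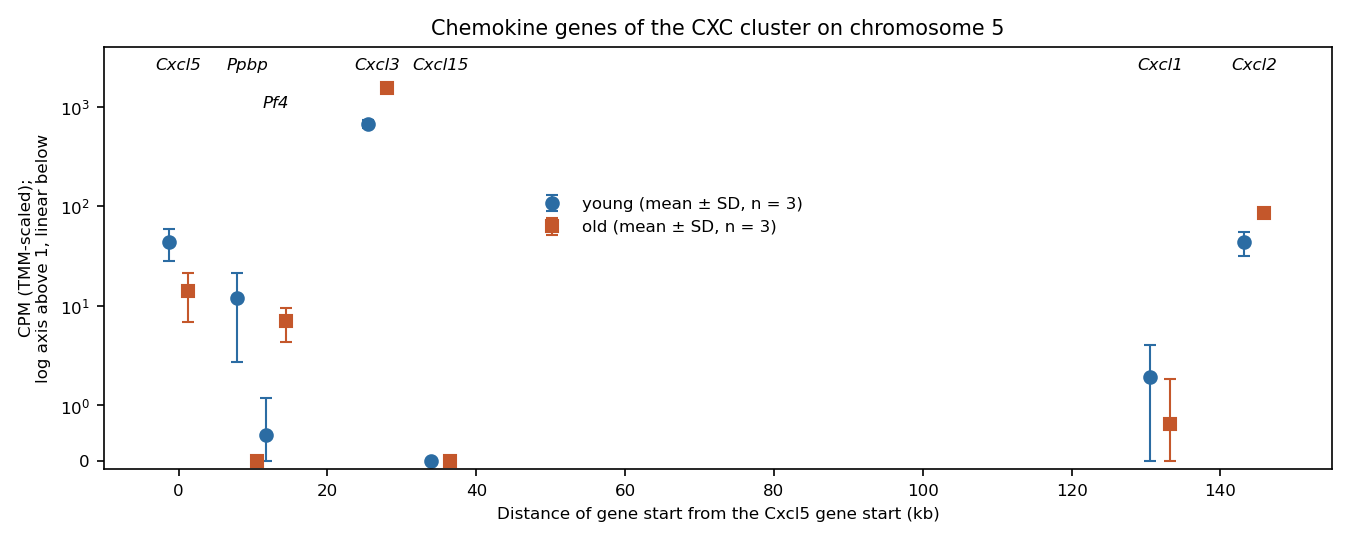
Mean level in CPM (logarithmic axis above 1, linear below) of 7 CXC ligand genes of the chromosome 5 cluster in young and old libraries (n = 3 each, bars are SD with the lower end limited to 0), placed by distance in kb from the start of Cxcl5. Along the cluster, old means are lower for Cxcl5 and Ppbp, higher for Pf4 and Cxcl3, lower for Cxcl1 and higher for Cxcl2. Pf4 and Cxcl1 did not pass the test, and Cxcl15 had no counts.

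Ccl3, Ccl4 and Ccl5 encode inflammatory CC ligands, of which Ccl3 and Ccl5 act through Ccr1 among other receptors. They lie on chromosome 11, Ccl5 at 83525778 to 83530518, Ccl3 at 83647844 to 83649355 and Ccl4 at 83662584 to 83664683. Ccl3 and Ccl4 are neighbours on opposite strands, 13.2 kb apart with 0 protein-coding genes between them.

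Ccl3 stood at 23.4, 26.8 and 45.1 CPM in young and at 7.15, 14.7 and 11.4 CPM in old libraries. The groups did not overlap, and young replicate 3 was the highest of the 6. The means were 31.8 ± 11.7 and 11.1 ± 3.77 CPM (SD, n = 3 each), 2.87-fold lower in old cells. The log2 difference was -1.52 ± 0.40 (SE) with an adjusted p of 0.0224 from edgeR. The call did not hold without young replicate 3 (log2 -1.15, adjusted p = 0.107), old replicate 1 (-1.29, 0.0625) or old replicate 3 (-1.54, 0.0527).

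Ccl4 was also lower in every old library than in any young library, at lower levels than Ccl3, with 47, 69 and 150 counts in young and 27, 20 and 0 counts in old libraries. In CPM this was 2.45, 2.81 and 7.63 against 1.79, 1.35 and 0. The spread within groups was wide, and the log2 difference of -2.03 ± 1.36 (SE) did not pass (edgeR adjusted p = 0.353). The log2 ratio of Ccl3 to Ccl4 (raw counts plus 0.5) was 3.24, 3.24 and 2.56 in young and 1.98, 3.41 and 8.49 in old libraries. Its difference, old minus young, was 1.61 (two-sided exact permutation p = 0.7) and -0.32 without old replicate 3, the library in which Ccl4 had 0 counts.

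Ccl5 was the most even of the 7 tested ligands. It stood at 35.7, 33.5 and 37.6 CPM in young and at 46.3, 46.9 and 35.0 CPM in old libraries. Old replicate 3 lay inside the young range. The log2 difference was 0.26 ± 0.24 (SE, edgeR adjusted p = 0.524), and it was -0.16 with scaling by library totals and -0.45 with offsets for transcript length and GC content.

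Ccl24 encodes an eotaxin, a ligand of Ccr3 that attracts eosinophils, and lies on chromosome 5 at 135569937 to 135573049, far from the CXC cluster. It had 174, 352 and 275 counts in young libraries and 0 in each old library. In CPM the young libraries stood at 9.07, 14.3 and 13.98, a mean of 12.5 ± 2.94 (SD, n = 3), and these were closer together than those of Ppbp. Against the floor of 0.0657 CPM, Ccl24 was at least 190-fold lower in old cells, with an adjusted p of 4.26e-04 from edgeR and a range of 2.88e-11 to 0.0063 over the alternative settings. Its bound ran from 124-fold to 216-fold when a library was left out. Macrophages are a known source of Ccl24. Of 13 macrophage and microglia markers, 5 were at 0 in every library, among them Csf1r, C1qa and Mrc1. Their summed level was 11.4 to 21.7 CPM in young libraries, where Ccl24 was found, and 60.8 to 99.0 CPM in old libraries, and without Tmem119 it was 11.4 to 21.6 and 24.6 to 33.6 CPM. Adgre1 had 79, 48 and 34 counts in young libraries and 0 in each old library, and was the only marker of this list called lower (edgeR adjusted p = 0.0151). Lyz2 went the other way, with 0 counts in each young library and 95, 178 and 156 in old libraries (edgeR adjusted p = 8.40e-04). Tmem119 and P2ry12 were also called higher (edgeR adjusted p = 0.00141 and 0.0385). The part of this list in the Ccl24 result was not tested.

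Ccl1 encodes a ligand of Ccr8, and its counts were 43, 0 and 0 in young and 11, 0 and 0 in old libraries. A single library of each group held all of them, at 2.24 and 0.729 CPM, and the gene did not reach the filter. Ccl17 and Ccl22 encode the ligands of Ccr4, which attract type 2 helper T cells, and lie on chromosome 8 with Cx3cl1 between them. Neither had a count in any of the 6 libraries. Counts of 0 over all libraries allow a level of up to 0.0275 CPM for each gene, so expression above that level was not detected at this depth.

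To compare levels between genes, CPM were divided by the length in kb of the principal transcript. On this scale Cxcl3 led in young cells with 664 CPM per kb, followed by Ccl5 with 66.9 ± 3.78, Ccl3 with 41.5 ± 15.3 and Cxcl2 with 39.7 ± 10.8 (SD, n = 3 each). The levels of Ccl3 and Cxcl2 differed by less than their spread. Next came Ppbp at 11.1 ± 8.53, Ccl24 at 9.62 ± 2.27 and Ccl4 at 6.51 ± 4.38 CPM per kb, neighbours that also lay within their spread. In old cells Cxcl3 stood at 1534, Ccl5 at 80.3 ± 12.6 and Cxcl2 at 77.7 ± 0.651 CPM per kb, with Cxcl2 inside the wider spread of Ccl5. Ccl3 followed at 14.5 ± 4.92 and Ccl4 at 1.58 ± 1.41, and Ppbp and Ccl24 were at 0. With the length of all annotated exons, a setting chosen after seeing the data, the young levels were 193 for Cxcl3, 37.1 for Ccl5 and 21.3 CPM per kb for Cxcl2, while Ccl3 stayed at 41.5. Ccl3 then ranked above Ccl5 in young cells, so the order below Cxcl3 depends on the length used.

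**Figure D3:**
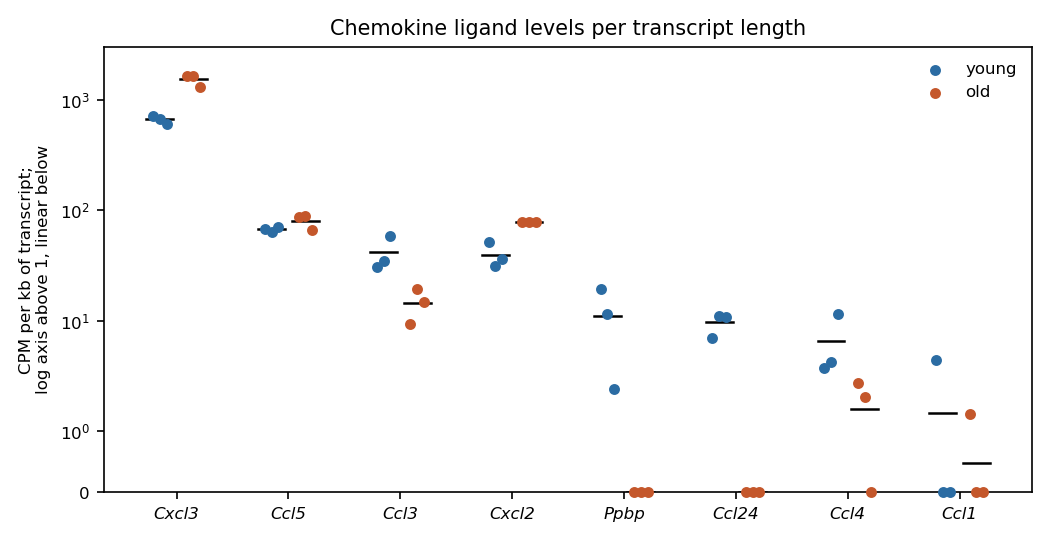
Level per length, in CPM per kb of principal transcript (logarithmic axis above 1, linear below), of the 8 ligands with counts, with a point for each of the 3 young and 3 old libraries and a line at each mean. Cxcl3 leads in both groups at 664 and 1534 CPM per kb, and Cxcl2 moves from beside Ccl3 in young to beside Ccl5 in old cells.

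Cxcl3 made up most of the signal from these ligands. It took 80.6% to 84.7% of their summed counts in young and 91.0% to 92.2% in old libraries. The summed level of the 10 ligands was 816 ± 59.8 CPM in young and 1699 ± 201 CPM in old cells (SD, n = 3 each). Without Cxcl3 the sums were 141 ± 14.7 and 141 ± 8.92 CPM, a difference smaller than the spread between libraries.

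Among 29 other chemokine ligands, 15 had no counts and 10 were tested, of which 2 rose, 2 fell and 6 did not pass. Their median log2 difference was -0.31, against -0.10 over all tested genes, of which 11.2% were called higher and 8.14% lower. Cxcl13, which attracts B cells through Cxcr5, rose from 0.67 ± 0.693 to 16.1 ± 5.60 CPM (SD, n = 3 each; edgeR adjusted p = 0.011) and passed under all 15 alternatives. Ccl7, a monocyte attractant, rose from 2.52 ± 2.64 to 23.7 ± 13.6 CPM (edgeR adjusted p = 0.0166), a call lost without young replicate 2 (0.0635), without old replicate 2 (0.071) and with offsets for length and GC content (0.0641). Cxcl10, an interferon-induced ligand of Cxcr3, fell from 15.7 ± 10.04 to 0.754 ± 0.881 CPM (edgeR adjusted p = 0.0202). That call was lost with limma-voom (0.121) and without young replicate 1 (0.0703), young replicate 3 (0.0938) or old replicate 2 (0.0643). Cxcl5, given above, was the other ligand that fell.

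Of 22 chemokine receptors, 2 had no counts and 14 were tested, of which 5 rose, 1 fell and 8 did not pass, with a median log2 difference of 0.74. These calls stand beside 11.2% higher and 8.14% lower over all tested genes. Cxcr2, the receptor for Cxcl2, Cxcl3 and processed Ppbp, stood at 0.104, 6.60 and 4.02 CPM in young and 65.0, 71.9 and 43.6 CPM in old libraries. Every old library was far above the young ones, with a log2 difference of 4.06 ± 0.82 (SE, edgeR adjusted p = 0.00577). Cxcr1, the adjacent receptor gene of the same family, rose from 5.76 ± 4.37 to 42.9 ± 17.7 CPM (SD, n = 3 each; edgeR adjusted p = 0.00632). Neutrophils are the cells best known for Cxcr2, and 7 of 8 neutrophil markers were at 0 in every library, with a summed level of at most 0.132 CPM. The part of neutrophils in the Cxcr2 and Cxcr1 results was not tested.

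Other receptors moved in both directions. Ccr8, the receptor of Ccl1, was the receptor that fell, from 146 ± 17.0 to 65.6 ± 8.81 CPM (SD, n = 3 each; edgeR adjusted p = 0.00141). Cxcr4, the receptor of Cxcl12, rose from 11.7 ± 2.16 to 47.5 ± 14.2 CPM (edgeR adjusted p = 0.00158). Cxcr2, Cxcr1, Cxcr4 and Ccr8 kept their calls under all 15 alternatives.

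Ccr4, whose ligands Ccl17 and Ccl22 had no counts, rose from 49.3 ± 9.90 to 91.5 ± 22.2 CPM (edgeR adjusted p = 0.027). Ccr1 rose from 83.7 ± 11.1 to 137 ± 32.3 CPM (edgeR adjusted p = 0.0343). Both calls were lost with scaling by library totals, and both without young replicate 1, young replicate 2, old replicate 2 or old replicate 3, with adjusted p from 0.0607 to 0.145 over those 4 omissions, each of which left 3 receptors called higher. Ccr3, the receptor of Ccl24, stood at 4.93 ± 2.14 and 6.81 ± 2.32 CPM and did not pass (edgeR adjusted p = 0.708). The number of receptors called lower was 2 without young replicate 3, where Ackr3 was added, and 2 without old replicate 3, where Cx3cr1 was added.

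**Figure D4:**
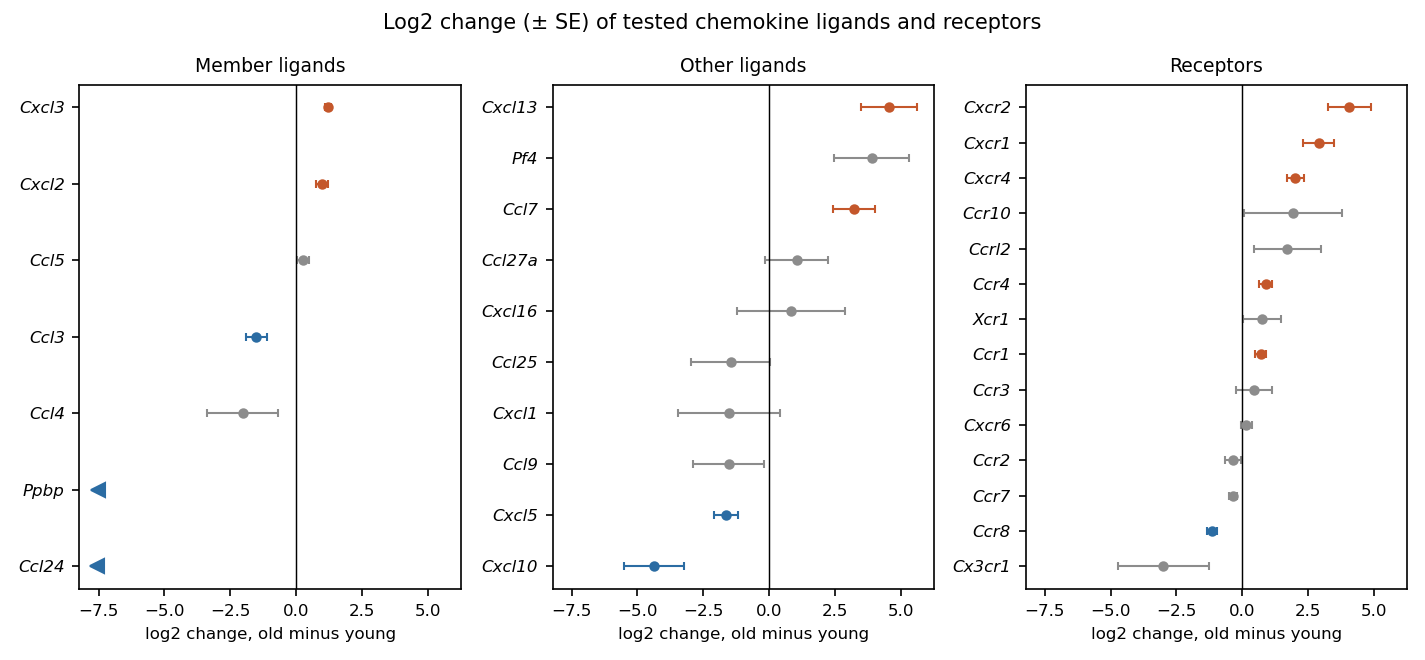
Log2 difference, old minus young, with its standard error (bars) for the 7 tested ligands described here, the 10 other tested ligands and the 14 tested receptors (edgeR, 3 young and 3 old libraries), with genes called higher in orange, called lower in blue and not passing in grey. Triangles place Ppbp and Ccl24 at their bounds, since both had 0 counts in old cells. Cxcl3 and Cxcl2 lie above 0 at 1.21 and 0.97, and 5 receptors are called higher against 1 lower.

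A list of 24 regulators of chemokine transcription and mRNA decay was tested in full, of which 1 rose, 5 fell and 18 did not pass, with a median log2 difference of -0.49. The shares called over all tested genes were 11.2% higher and 8.14% lower. Nfkb1, a subunit of NF-kappaB, stood at 97.7, 114 and 70.8 CPM in young and 220, 317 and 348 CPM in old libraries. All old libraries lay above the young ones, with a log2 difference of 1.65 ± 0.22 (SE, edgeR adjusted p = 5.28e-04) and calls under all 15 alternatives. Rela, its usual partner, stood at 89.4 ± 3.43 and 58.9 ± 20.0 CPM and did not pass (edgeR adjusted p = 0.128). Nfkbia, an inhibitor of NF-kappaB and itself a target of it, stood at 1304 ± 84.8 and 1627 ± 149 CPM (edgeR adjusted p = 0.0814).

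Zc3h12a, which encodes an RNase that degrades inflammatory mRNAs, fell from 52.7 ± 12.5 to 22.9 ± 4.93 CPM (SD, n = 3 each; edgeR adjusted p = 0.0136, and 0.0878 without young replicate 1). Il1rl1, the IL33 receptor gene, fell from 488 ± 43.1 to 276 ± 48.7 CPM (edgeR adjusted p = 0.00397, and 0.101 with offsets for length and GC content). Nfatc1, a calcium-responsive transcription factor, fell by 1.45 on the log2 scale (edgeR adjusted p = 0.0102), a call lost without young replicate 1 (0.0606) or young replicate 2 (0.0597). Nfkbiz, a nuclear cofactor of NF-kappaB, fell by 1.40 (edgeR adjusted p = 0.0265), and Irak4, a kinase downstream of Il1rl1, fell by 1.57 (edgeR adjusted p = 0.0481). The Nfkbiz call was lost under 5 alternatives and the Irak4 call under 10, among them the omission of young replicate 1, young replicate 2 or old replicate 2 for both, of old replicate 3 for Nfkbiz, and of young replicate 3 or old replicate 1 for Irak4. The number of regulators called lower was 12 with scaling by library totals, 2 with offsets for length and GC content, 1 without young replicate 1 and 2 without young replicate 2. The number called higher was 3 with DESeq2 and with limma-voom, 2 without young replicate 2, where Zfp36 was added, and 2 without young replicate 3 or old replicate 3, where Nfkbia was added.

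Of 12 genes that transmit signals from chemokine receptors, 1 rose, 3 fell and 8 did not pass, with a median log2 difference of -0.10. For all tested genes the shares called were 11.2% higher and 8.14% lower. Rac2, a GTPase of leukocyte migration, rose from 1018 ± 60.6 to 1444 ± 81.9 CPM (SD, n = 3 each; edgeR adjusted p = 0.00943), a call lost with library totals (0.612) and without young replicate 1 (0.0601). Dock2, an activator of Rac, fell by 1.28 on the log2 scale (edgeR adjusted p = 0.0155), and this was lost with offsets for length and GC content (log2 -0.55, 0.282) and without young replicate 1 (0.0895) or old replicate 1 (0.051). The calls of Gnai3 and Pik3cg (edgeR adjusted p = 0.0484 and 0.04997) were lost under 8 and 9 of the 15 alternatives, among them the omission of any young library, and of old replicate 1 or 2 for Gnai3 and old replicate 3 for Pik3cg. Of this list, 6 genes were lower and 0 higher with scaling by library totals, 0 lower and 2 higher with offsets for length and GC content, and 1 was lower with relative log expression scaling. Without young replicate 1, 0 genes were called in either direction. Without young replicate 3, 2 were higher, with Rgs16 added, and 1 was lower, and without old replicate 1, 1 was lower.

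Markers of other cell types were read for the whole lists. Markers of dendritic cells, known producers of Ccl17 and Ccl22, had 3 of 8 genes at 0 and summed to 64.8 to 87.8 CPM in young and 310 to 354 CPM in old libraries, mostly from Batf3. Without Batf3 the sum was 5.13 to 7.25 CPM in young and 6.89 to 12.3 CPM in old libraries, and the groups overlapped. Mast cell and basophil markers had 5 of 11 genes at 0 and summed to 261 to 291 CPM in young and 189 to 333 CPM in old libraries, mostly from Mcpt8. Without Mcpt8 the sum was 11.9 to 32.6 CPM in young and 4.70 to 11.4 CPM in old libraries, lower in old without overlap. Of 7 eosinophil markers 6 were at 0, with counts for Ccr3 alone. T cell markers had 3 of 8 genes at 0, Cd3e, Cd4 and Cd8a, and summed to 32.1 to 50.7 CPM in young and 33.8 to 49.0 CPM in old libraries. Natural killer cell and ILC1 markers had counts for Prf1 alone of 6 genes, at 2.24 to 4.68 CPM in young and 9.84 to 23.4 CPM in old libraries. B cell markers had counts for Cd79b alone of 5 genes, at 13.7 to 22.9 CPM in young and 33.2 to 58.3 CPM in old libraries. The sums of the dendritic cell, macrophage and microglia, natural killer cell and ILC1, and B cell lists were higher in old than in young libraries without overlap. The part of these lists, and of the mast cell and basophil list, in the ligand results was not tested.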

How the data were processed

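RNA of 6 libraries was sequenced as single-end reads of 75 bases. The authors deposited raw counts per gene symbol and library. Tools listed in the submitters' processing notes are the aligner STAR 2.5.3a, bcl2fastq 2.20.0.422 and FastQC 1.0.0 for the reads, and DESeq2 1.1 and Cufflinks 2.0, with mm10 as the build. For the read counter, its annotation and its use of strand, nothing is given in the sources used here. No exon of the 10 ligands overlaps another gene of GENCODE vM21.

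Libraries were grouped by the age in their titles. Genes passing filterByExpr of edgeR 4.0.16 in R 4.3.3 (minimum count 10, minimum total 15) were scaled by TMM and compared, old against young, with glmQLFit and glmQLFTest and Benjamini-Hochberg adjustment at 0.05. All 6 libraries entered a single fit with no covariate. Each SE was taken as the size of the log2 difference over the square root of F. Ratios between neighbouring ligands were compared by exact permutation of libraries. A count of 0 was taken to allow up to 3 counts, which covers counting error only.

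The members and gene lists were chosen with earlier results of these data known. All 10 ligands were given with values, and of the other lists every called gene could be named, with up to 4 others per list by level. Some further genes were named after their values were seen: Pf4, Cxcl1 and Cxcl15 for their place in the cluster, and Ackr3, Cx3cr1 and Rgs16 for joining a call when a library was omitted. On data simulated from these libraries, with 97 genes changed by each fold among 11445 tested, the test recovered 62.9% of the 4-fold and 21.6% of the 2-fold changes, and 7.9% of its 89 calls were false. A smaller share of genes was changed there than was called in the real comparison, so these rates need not hold for it. The 15 alternatives covered DESeq2 1.42.0, limma-voom (limma 3.58.1), scalings, filters, dispersion, a replicate block, length and GC offsets, and each library left out. Motifs and aligned identity were computed with Biopython 1.88. A receptor gene is not reported here and was left out of the receptor list.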

Additional observations from a re-analysis of the deposited data

How the results depend on the processing

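Directions of Cxcl3, Cxcl2, Ccl3, Ccl4, Ccl24 and Ppbp were the same under all 15 alternatives. The Ccl5 difference, not called, turned to -0.16 with library totals and -0.45 with length and GC offsets. Library totals gave 718 genes higher, 2380 lower and 1 ligand higher (Cxcl3), in place of 1325, 961 and 2. Leaving out a library gave 399 to 849 genes lower and a Ccl3 to Ccl4 log2 ratio difference of -0.32 to 2.93. The number of ligands called lower ran from 2 to 3. With a replicate block, 1208 genes were higher and 800 lower, with 2 ligands higher and 3 lower, and Cxcl5 had an adjusted p of 0.0656. Deviations of same-numbered libraries had small correlations (0.020, 0.009 and 0.041), and other pairs had -0.027 to 0.012. Young replicate 1 and young replicate 3 correlated best with the old library of their number, and young replicate 2 with old replicate 1. Because these values are small and the labels pair no libraries, the replicate numbers are not taken as pairs. CPM per kb over all annotated exons moved Cxcl3, Ccl5 and Cxcl2 in young to 193, 37.1 and 21.3. A Ccl17 to Ccl22 ratio could not be computed because both genes had 0 counts. Depth limits what can be said of Ccl1, Ccl17 and Ccl22, and 3 libraries a group limit small differences such as that of Ccl5.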
